A study of Mus musculus with 24 samples.

Results

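The genes described here are 45 listed genes of DNA replication and mitosis, read on 24 one-colour arrays of RAW264.7 cells, a mouse macrophage-like tumour line. Of the 45, 44 were found under their names in the gene name column of the scanner files, and all 44 had a probe well above background on every array of at least 1 of the 8 groups. They were 44 of the 15096 gene names that passed this filter, out of 27827 gene names on the array. Cdk1, the mitotic kinase partner of the B cyclins, was the 1 listed gene with no probe under its name. The array carries its earlier symbol Cdc2a, which is reported beside the members but not counted among them. The brightest probe that passed the filter stood for each gene.

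The cells were RAW264.7 lines that carried 1 of 2 constructs, one that overexpresses Tbc1d23, a protein with a domain found in Rab GTPase-activating proteins, and one that overexpresses chloramphenicol acetyltransferase (CAT), a bacterial enzyme that served as control. Both were grown in medium with 400 ug/ml G418, and each was left without LPS (0 h) or exposed to 20 ng/ml LPS, a bacterial cell wall component sensed by TLR4, for 1, 3 or 5 h. Each of the 8 groups had 3 arrays, which the series describes as biological replicates. No group was left without LPS for 1, 3 or 5 h. An LPS response below is therefore a change from 0 h, in which LPS cannot be told apart from hours in culture. The design text names 1 line for each construct and no label says whether its replicates were separate cultures, so a difference between the lines cannot be told apart from a difference between those particular cultures, and p-values measure only the spread between these samples.

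Before a cell can copy its DNA, replication origins must be licensed. The origin recognition complex, Cdc6 and Cdt1 load the MCM helicase onto chromatin in G1, and geminin blocks Cdt1 once S phase has begun. D cyclins with Cdk4, and then E cyclins with Cdk2, inactivate the retinoblastoma proteins and release E2F factors, which switch on genes of licensing and DNA synthesis. Genes of G2 and mitosis, such as the A and B cyclins, the Aurora and Polo kinases and the spindle checkpoint proteins, are switched on later by complexes that bind CHR and CCAAT elements. The proliferation of macrophages is known to slow when they are activated by LPS.

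Levels below are log2 of the background-subtracted Cy3 signal of a probe minus the 75th percentile of that array, so they compare arrays for 1 gene and not 1 gene with another. A gene was called when limma's test, fitted over all 8 groups, gave a Benjamini-Hochberg adjusted p below 0.05 over 15096 gene names; differences are log2 values ± SE from that fit with 3 arrays in each group. Between 42.2% and 69.7% of the spots of an array were well above background, and replicates of a group correlated at 0.967 to 0.993. Of 10 macrophage markers 9 were well above background on all 24 arrays (Cd86 on 8), and none of the 18 markers of T, NK, B, fibroblast, epithelial and erythroid cells was. Of the 2 Tbc1d23 probes that were well above background on all arrays, the brighter did not separate the lines (average log2 difference 0.03 ± 0.11, adjusted p = 0.805), and the dimmer was higher in the Tbc1d23 line (0.49 ± 0.09, adjusted p = 5.96e-05; 0.36 ± 0.18 at 0 h, not called); which part of the gene the construct holds was not used here, so this checks nothing about the construct. Each slide held the 4 times of 1 line and replicate, and the slide serial numbers fell into 2 runs: 1 run held the 3 CAT slides and Tbc1d23 replicate 3, the other Tbc1d23 replicates 1 and 2. In RNA from a whole culture, fewer cells in a phase of the cycle and less RNA per cell cannot be told apart.

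**Figure D1:**
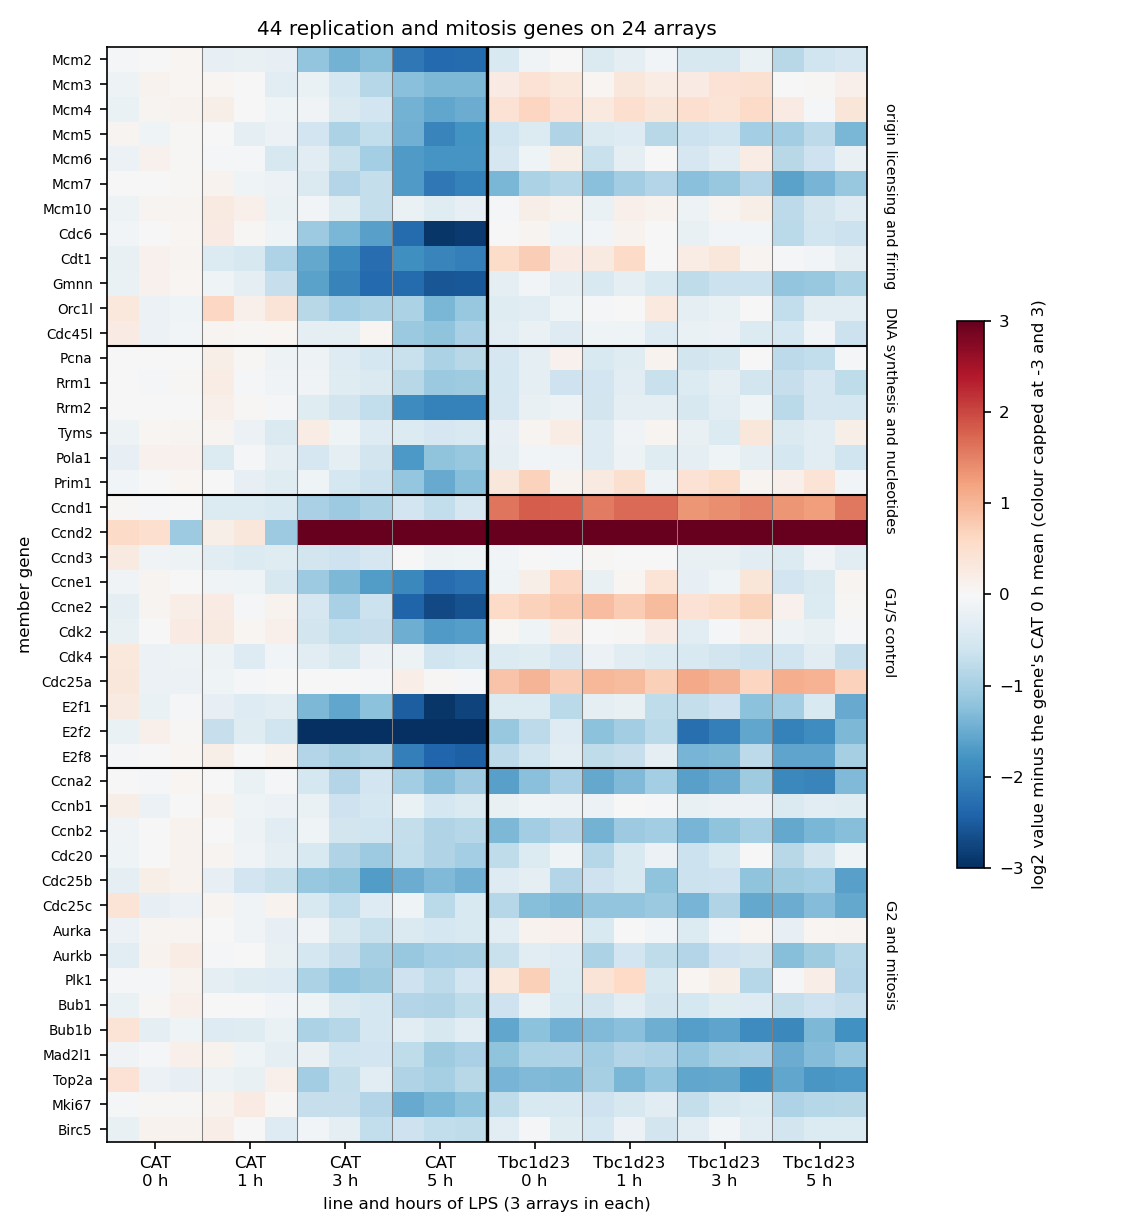
Heat map of the 44 genes (rows, by role) on the 24 arrays (columns, 3 for each line and time), coloured by the log2 level minus that gene's mean in the CAT line at 0 h and capped at -3 and 3. The CAT line turns blue at 3 and 5 h of LPS in most rows, while the Tbc1d23 line changes colour in fewer rows with LPS and starts with lower levels of several mitotic genes and higher levels of Ccnd1, Ccnd2 and Cdc25a.

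Most replication and mitosis genes of the CAT line were lower after 5 h of LPS than at 0 h. At that time 36 of the 44 genes had fallen and 1, Ccnd2, had risen, with a median log2 difference of -1.12 against 0.06 over all gene names. Over all gene names 21.8% were called lower and 19.6% higher. The fall covered 11 of 12 licensing genes, 5 of 6 DNA synthesis genes, 8 of 11 genes of G1/S control and 12 of 15 genes of G2 and mitosis. Most calls came after the first hour. At 1 h Ccnd1 and Ccnd3 were called lower and no gene higher (all gene names: 3.44% lower, 3.86% higher). The 1 h mean lay below that of 0 h in 31 of 44 genes, with a median of -0.09 against -0.07 over all gene names. At 3 h 33 had fallen and 1 had risen (17.5% lower, 17.2% higher). Of the 36 that were lower at 5 h, 29 were also called at 3 h; both times are set against the same 0 h arrays.

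The call at 1 h depended on single arrays and on how slides were treated. With the replicate, which shares a slide within a line, as a block, 8 genes were called (1 higher, 7 lower). In that fit 1036 of all gene names were called higher and 1362 lower, against 582 and 520 in the reported fit. The count was 1 gene without any one of CAT 0 h replicate 1, CAT 1 h replicates 1, 2 or 3, or the slide of Tbc1d23 replicate 1. In these fits 895 to 1002 of all gene names were called, against 1102 in the reported fit. No gene was called without the slide of CAT replicate 2 or 3, with 647 and 729 of all gene names called. At 3 h, 21 and 20 genes were called without the slide of CAT replicate 2 and of CAT replicate 3. Calls over all gene names were then 3742 and 4278, against 5236 in the reported fit.

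The MCM2-7 helicase, the ring that unwinds DNA at the fork, fell as a whole in the CAT line. Mcm2 read 3.95, 3.97 and 4.03 at 0 h, 3.74, 3.77 and 3.74 at 1 h, 2.79, 2.55 and 2.71 at 3 h and 1.83, 1.66 and 1.66 at 5 h. The arrays of each time lay below those of the time before without overlap, and the fall at 5 h was 2.27 ± 0.13 (adjusted p = 2.82e-11), or 4.81-fold. Mcm7 went from 6.29, 6.28 and 6.34 at 0 h to 4.61, 4.15 and 4.27 at 5 h, a difference of -1.96 ± 0.17 (adjusted p = 1.45e-08). The other subunits changed by -1.75 (Mcm6), -1.74 (Mcm5), -1.48 (Mcm4) and -1.31 (Mcm3), and all 6 were called. At 3 h the same 6 were called with smaller changes, from -0.37 for Mcm4 to -1.30 for Mcm2. The 3 h calls of Mcm3, Mcm4, Mcm6 and Mcm7 were each lost in at least 1 fit that left out 1 array or slide. For Mcm4 and Mcm6 this happened in 7 such fits each.

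The factors that load the helicase fell in the CAT line as well. Cdc6, the ATPase that helps to close the ring on DNA, read 0.67, 0.77 and 0.82 at 0 h and -1.57, -2.16 and -2.11 at 5 h of LPS. The drop of 2.69 ± 0.15 (adjusted p = 2.93e-11) was 6.47-fold, and its second probe gave -3.06. Gmnn (geminin, the inhibitor of Cdt1) fell from 7.01, 7.32 and 7.27 to 4.90, 4.64 and 4.65, by 2.47 ± 0.17 (adjusted p = 4.04e-10). Cdt1, its target, had nearly all of its change by 3 h, with -1.90 at 3 h and -1.95 at 5 h. Orc1l, a subunit of the origin recognition complex now named Orc1, changed by -1.16 ± 0.16, and Cdc45l (now Cdc45), a part of the active helicase, by -1.10 ± 0.14 with no call at 3 h (-0.16). Mcm10, which helps to start the fork, was the 1 licensing gene not called at 5 h (-0.27 ± 0.16, adjusted p = 0.206); its 0 h values of 5.05, 5.31 and 5.29 and 5 h values of 5.02, 4.85 and 4.97 did not overlap.

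**Figure D2:**
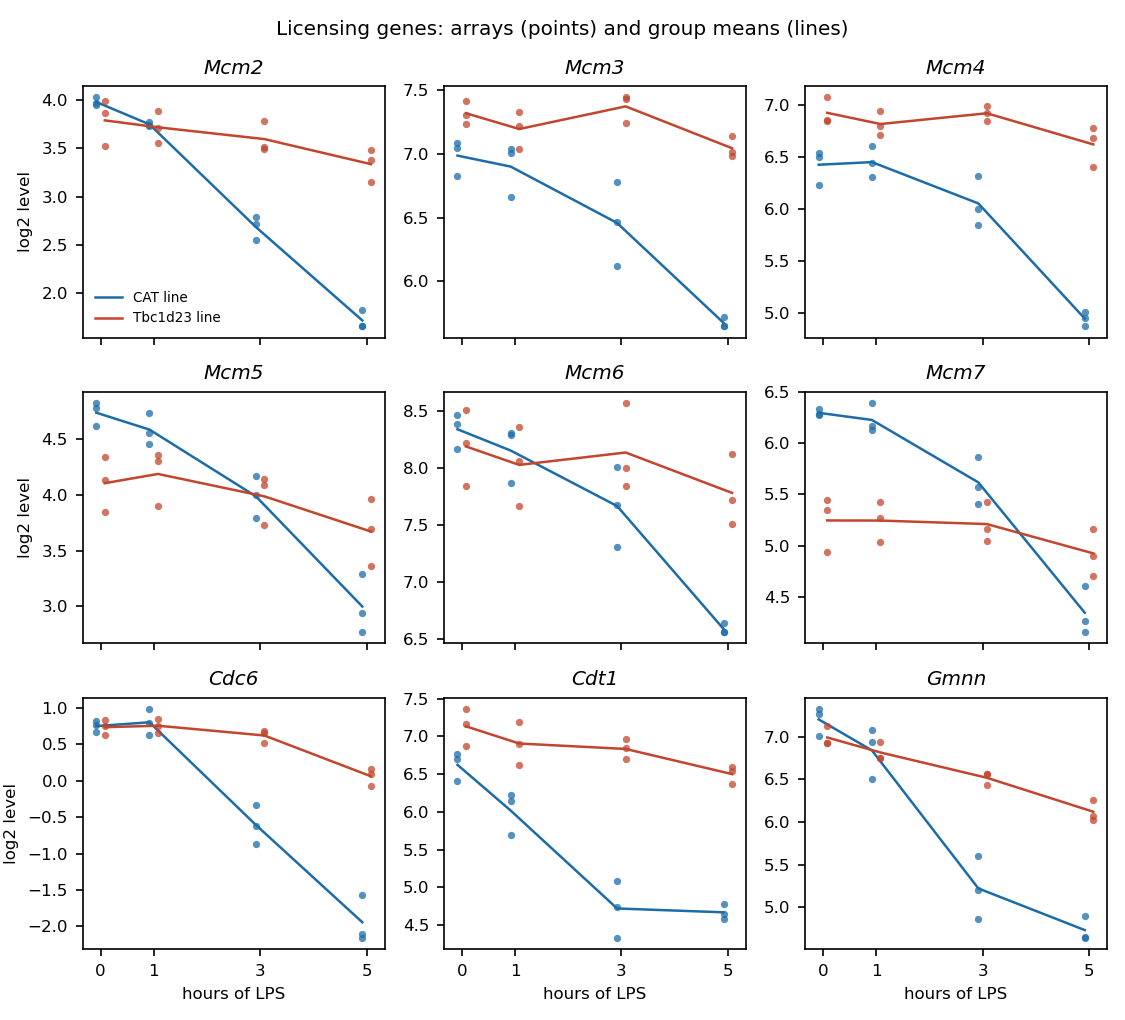
Log2 levels of 9 licensing genes (vertical axis, own scale for each gene) against hours of LPS, with 1 point for each array, lines through the group means, CAT in blue and Tbc1d23 in red. In the CAT line every panel falls by 5 h, while the Tbc1d23 means stay closer to their 0 h level.

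Among the genes of DNA synthesis, Rrm2, the regulated subunit of ribonucleotide reductase that makes deoxynucleotides, fell most in the CAT line. Its values were 3.00, 2.97 and 2.96 at 0 h, 2.62, 2.42 and 2.25 at 3 h and 1.09, 0.94 and 0.94 at 5 h, a final change of -1.98 ± 0.13 (adjusted p = 2.01e-10). The 3 times did not overlap. Pola1 and Prim1, the polymerase and primase that start each strand, changed by -1.35 and -1.32, Rrm1, the large reductase subunit, by -1.01, and Pcna, the sliding clamp, by -0.82. Tyms, which makes thymidylate, was not called (-0.46 ± 0.21, adjusted p = 0.0936), and its 2 bright probes gave -0.46 and -0.44.

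Among the E2F factors and E cyclins was the member with the largest fall. E2f2, an activating E2F, read 4.96, 5.30 and 5.19 at 0 h, 4.46, 4.8 and 4.55 at 1 h, 2.10, 2.07 and 1.88 at 3 h and 1.22, 1.14 and 1.19 at 5 h in the CAT line. Each time lay below the one before, and the change of -3.96 ± 0.20 at 5 h (adjusted p = 9.42e-12) was a 15.6-fold drop. E2f1, the best known activating E2F, changed by -2.72 ± 0.23 (adjusted p = 1.24e-08), and E2f8, an E2F that represses, by -2.29 ± 0.18. Ccne2 (cyclin E2) fell from 0.40, 0.77 and 0.88 to -1.71, -2.03 and -1.94, by 2.58 ± 0.16 (adjusted p = 9.89e-11), and its second probe gave -2.56. Ccne1 (cyclin E1) changed by -2.15 and their kinase Cdk2 by -1.61, while Cdk4 changed by -0.43. Cdc25a, the phosphatase that activates Cdk2, stayed between -1.06 and -0.54 on the CAT arrays of 0 and 5 h, with 0.07 ± 0.15 (adjusted p = 0.797); its second probe gave -0.27.

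The D cyclins, which start the passage through G1, each took another course in the CAT line. Ccnd2 read -3.49, -3.56 and -5.17 at 0 h, -3.90, -3.72 and -5.16 at 1 h, -0.63, 0.09 and -0.23 at 3 h and 0.68, 1.28 and 1.67 at 5 h. All arrays of 3 and 5 h lay above all of 0 and 1 h, and the rise at 5 h was 5.28 ± 0.42 (adjusted p = 5.60e-09). The size of that rise is loose, since the probe was well above background on 2 of 3 arrays at 0 h and 1 of 3 at 1 h; its 2 other probes gave 6.12 and 5.94. Ccnd1 fell at every time, from 2.08, 2.01 and 2.04 at 0 h to 1.07, 0.96 and 1.09 at 3 h and 1.48, 1.31 and 1.55 at 5 h (-0.42, -1.01 and -0.60 at 1, 3 and 5 h, all called). Ccnd3 was lower at 1 h (-0.37 ± 0.10) and 3 h (-0.56 ± 0.10), and at 5 h its arrays overlapped those of 0 h (-0.10 ± 0.10, adjusted p = 0.512).

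**Figure D3:**
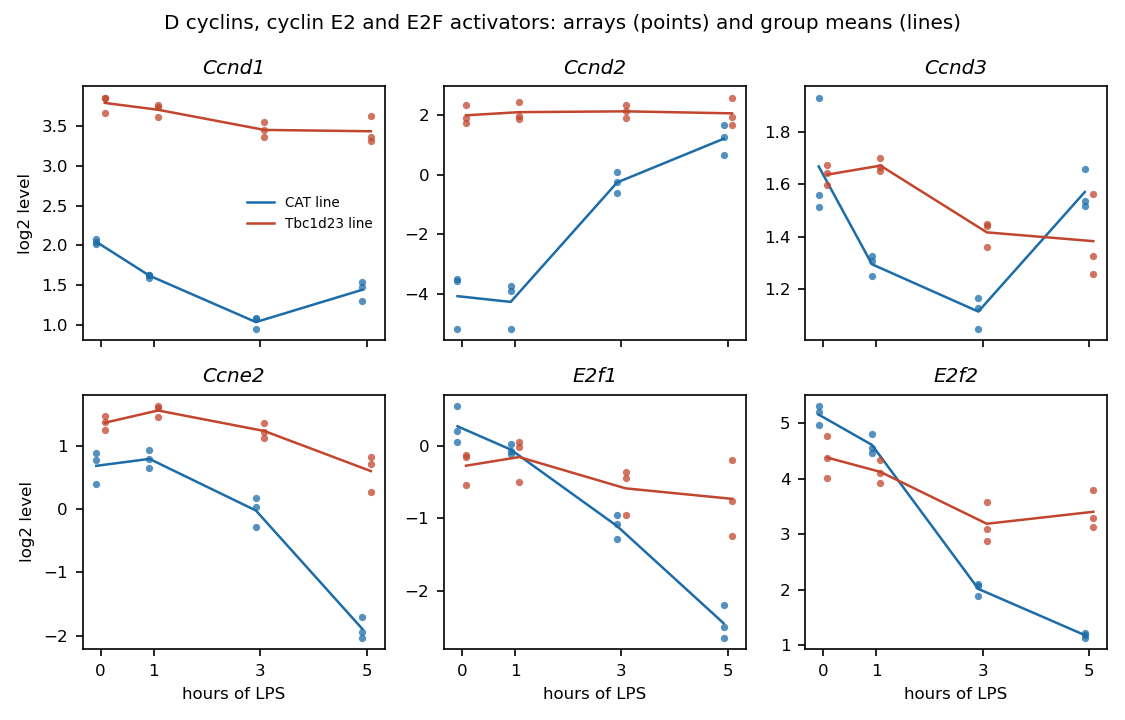
Log2 levels (vertical axis, own scale for each gene) of the 3 D cyclins, Ccne2, E2f1 and E2f2 against hours of LPS, with 1 point for each array, lines through the group means, CAT in blue and Tbc1d23 in red. Ccnd2 climbs in the CAT line towards the Tbc1d23 level, which stays near 2, Ccnd1 stays higher in the Tbc1d23 line at all 4 times, and E2f2 starts lower and ends higher in the Tbc1d23 line.

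Genes of G2 and mitosis had a median change of -0.85 in the CAT line at 5 h, against -1.74 for licensing genes. Cdc25b, a phosphatase that activates Cdk1, changed by -1.42 ± 0.23, Mki67, the proliferation antigen of the chromosome surface, by -1.37 ± 0.12, and Ccna2 (cyclin A2) by -1.14 ± 0.20. Aurkb, the kinase of the chromosomal passenger complex, changed by -1.05, and Birc5 (survivin) of the same complex by -0.71. Ccnb2 (cyclin B2) changed by -0.83 and Cdc20, which activates the anaphase-promoting complex, by -0.89. Top2a, the topoisomerase that untangles chromosomes, changed by -0.91, Mad2l1 and Bub1 of the spindle checkpoint by -0.94 and -0.85, and the mitotic kinase Aurka by -0.47. Plk1, the Polo kinase, had fallen at 3 h (-1.06 ± 0.32) but was not called at 5 h (-0.66 ± 0.32), and the same held for Bub1b, the checkpoint kinase relative (-0.77 and -0.37), and Cdc25c, another Cdk1 phosphatase (-0.53 and -0.47). The 3 h call of Plk1 was lost without any 1 of the 3 CAT slides, and that of Bub1b without the slide of CAT replicate 1. That of Cdc25c was lost in 22 of the 30 fits that left out 1 array or slide. With the replicate as a block, which pairs the arrays of a slide, 41 of the 44 genes were called in the CAT line at 5 h, 40 of them lower. In that fit 8680 of all gene names were called, 4271 of them lower, against 6250 and 3285 in the reported fit. The 4 members that gained a call were Plk1 (adjusted p = 7.27e-07), Bub1b (0.0405), Cdc25c (0.0188) and Tyms (0.0126). Without 1 array or slide the calls of 5 members at 5 h were lost: Cdc20 without the slide of CAT replicate 3 (-0.77), Pcna without that of CAT replicate 2 (-0.76), and Aurka (-0.50 to -0.40), Cdk4 (-0.45 to -0.27) and Ccnb1 (-0.37 to -0.30) without any one of several CAT arrays or slides. Ccnb1 (cyclin B1) was called lower on its brightest probe (-0.39 ± 0.12), but its 2 dimmer probes gave 0.07 and 0.00, and the dimmer probe of Bub1 gave 0.16. Cdc2a, the earlier symbol of Cdk1, was not called (-0.07 ± 0.13, adjusted p = 0.747).

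In the Tbc1d23 line fewer of these genes were called than in the CAT line. The mean change at 5 h was smaller in size than in the CAT line for 42 of the 44 genes and larger for Mcm10 and Ccnd3. At 5 h 9 of 44 had fallen and none had risen, with a median of -0.31 against -0.004 over all gene names, of which 2.88% were called lower and 3.15% higher. The 9 were Mcm2, Mcm10, Cdc6, Gmnn, Ccnd1, Ccne2, E2f2, E2f8 and Aurkb, and 8 of them had also fallen in the CAT line (not Mcm10). At 3 h E2f2 and Ccnd1 had fallen (all gene names: 2.97% lower, 3.65% higher). At 1 h limma called none, against 0.802% lower and 0.835% higher over all gene names; 1 member had an unadjusted p below 0.05. The mean at 5 h lay below that at 0 h in 42 of the 44 genes. By limma's test 19 genes had an unadjusted p below 0.05 at 5 h, all of them lower. Over all gene names 15.1% had one, in either direction.

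These counts moved with the treatment of the slides and with single arrays. With the replicate as a block 23 genes were called lower at 5 h, 5 at 3 h, and 1, higher, at 1 h. The shares of all gene names in that fit are not given here. At 5 h 5 were called without Tbc1d23 5 h replicate 1 and without Tbc1d23 0 h replicate 2. The count was also 5 without the slide of CAT replicate 2 or of Tbc1d23 replicate 1. It was 4 without Tbc1d23 5 h replicate 2, and 0 without the slide of Tbc1d23 replicate 2. Calls over all gene names fell as well, from 910 to 628 and 453 in the latter pair and to between 566 and 800 in the others. Within the run shared by both lines, where the Tbc1d23 line had 1 array for each time (replicate 3), 1 was called at 5 h and 1 at 3 h, with the spread taken from the CAT arrays. At 3 h the count was 1 without any one of Tbc1d23 3 h replicate 1, 0 h replicate 2, 3 h replicate 2, 0 h replicate 3, CAT 0 h replicate 2, 1 h replicate 2, 0 h replicate 3, or the slides of CAT replicate 2, Tbc1d23 replicate 1 or Tbc1d23 replicate 2.

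E2f2 had the largest fall of this line as well. It read 4.0, 4.36 and 4.77 at 0 h, 2.88, 3.09 and 3.59 at 3 h and 3.12, 3.29 and 3.79 at 5 h, a change of -0.97 ± 0.20 (adjusted p = 0.00509). The arrays of 0 h lay above those of 3 and 5 h, which overlapped. Gmnn went from 6.92, 7.13 and 6.92 to 6.03, 6.07 and 6.26, by -0.87 ± 0.17 (adjusted p = 0.00212), and E2f8 changed by -0.82 ± 0.18 (adjusted p = 0.0081). Neither gene's arrays of 5 h overlapped those of 0 h. Ccne2 changed by -0.76 ± 0.16, from 1.25, 1.37 and 1.46 to 0.82, 0.27 and 0.71, and Cdc6 by -0.67 ± 0.15, from 0.75, 0.83 and 0.63 to -0.07, 0.16 and 0.10. Mcm10 was the gene that fell here (-0.65 ± 0.16, adjusted p = 0.0167) without a call in the CAT line (-0.27 ± 0.16); its LPS responses were not called different between the lines (-0.38 ± 0.23, adjusted p = 0.275). Of the helicase subunits Mcm2 was called (-0.45 ± 0.13), and Mcm3 to Mcm7 changed by -0.27, -0.30, -0.43, -0.41 and -0.32 without a call.

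The difference between the lines' LPS responses was tested as such. At 5 h it was called for 25 of 44 genes: 24 changed more positively in the Tbc1d23 line than in the CAT line, and 1, Ccnd2, less so, with 12.1% and 10.9% of all gene names called in those directions. The 24 comprised 11 of 12 licensing genes, 4 of 6 synthesis genes, 6 of 11 G1/S genes and 3 of 15 genes of G2 and mitosis (Bub1, Mad2l1 and Mki67). The dimmer probe of Bub1 gave -0.27, so the direction for Bub1 rests on the choice of probe. At 3 h 12 were called more positive and 1 less (8.11% and 8.46% of all gene names). With the replicate as a block 28 were called in all, and the share of all gene names in that fit is not given here. Without the slide of CAT replicate 1 the count was 22, with 2414 of all gene names called, against 2501 in the reported fit. At 1 h limma called none of the 44 (0.563% and 1.82% of all gene names), and 2 had an unadjusted p below 0.05. Within the run shared by both lines the count at 5 h was 21, 20 of them more positive.

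The largest positive differences were those of E2f2 (2.99 ± 0.29, adjusted p = 2.33e-07), E2f1 (2.26 ± 0.33, adjusted p = 3.25e-05) and Cdc6 (2.02 ± 0.21, adjusted p = 6.83e-07). E2f1 in the Tbc1d23 line read -0.12, -0.14 and -0.54 at 0 h and -0.75, -0.19 and -1.24 at 5 h, against 0.55, 0.06 and 0.21 and -2.20, -2.65 and -2.50 in the CAT line. At 0 h the 3 CAT arrays of E2f1 were the higher ones (adjusted p = 0.0638, and 0.0359 with the replicate as a block), and at 5 h the 3 Tbc1d23 arrays were (adjusted p = 4.98e-06). For Ccnd2 the difference was -5.21 ± 0.60 (adjusted p = 2.15e-06), with Tbc1d23 values of 1.74, 1.90 and 2.35 at 0 h and 1.94, 1.65 and 2.59 at 5 h. The size of this difference is as loose as that of the rise in the CAT line. The helicase subunits differed by 1.04 (Mcm3) to 1.81 (Mcm2) and all 6 were called at 5 h. Members with no call included Cdc25a (-0.01 ± 0.21, adjusted p = 0.992) and Tyms (0.25 ± 0.30); a missing call does not show that the lines responded alike. In 8 genes the mean change at 3 h had opposite signs in the lines (Birc5, Cdc20, Cdc25a, Cdc45l, Mcm3, Mki67, Orc1l and Rrm1), but none of their changes in the Tbc1d23 line was called, the largest being 0.10 for Orc1l. At 5 h no gene had opposite signs.

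**Figure D4:**
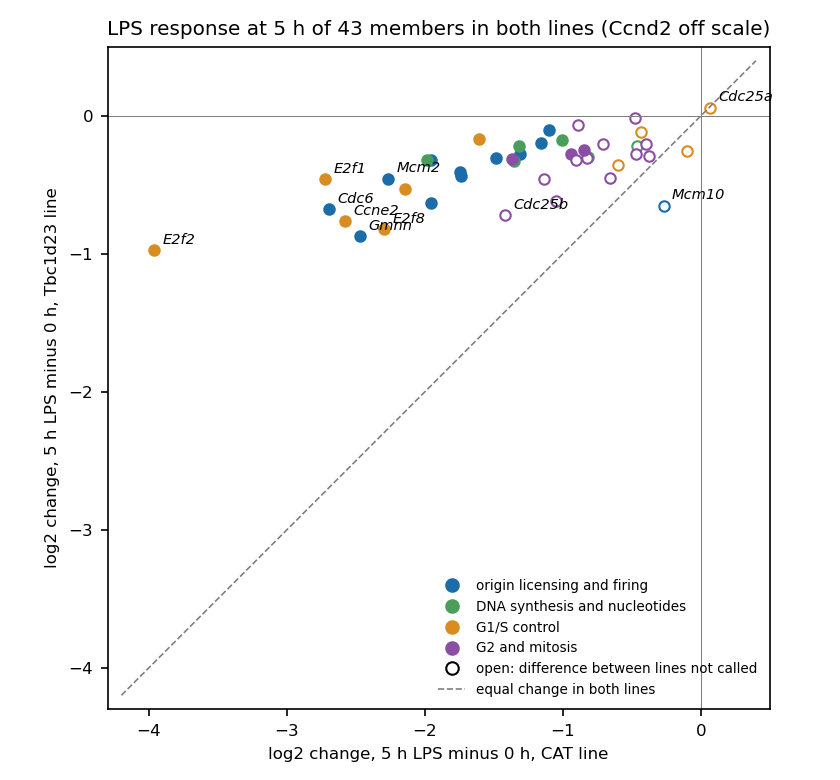
Log2 change from 0 h to 5 h of LPS in the CAT line (horizontal axis) and the Tbc1d23 line (vertical axis) for 43 members, coloured by role, filled where the difference between the lines was called; Ccnd2 (5.28 and 0.07) is off the scale. Most points lie above the dashed line of equal change, with E2f2 at -3.96 and -0.97.

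Before LPS, most of the members that were lower in the Tbc1d23 line were genes of mitosis. At 0 h 15 of 44 genes were lower in the Tbc1d23 line and 6 were higher, with a median of -0.24 against 0.10 over all gene names, of which 20% were called lower and 25.2% higher. Of the 15 genes of G2 and mitosis 9 were lower and none higher; of the 12 licensing genes 2 were lower and 2 higher. At 1 h 13 were lower and 7 higher (21.8% and 23.6% of all gene names). Within the run shared by both lines 13 were lower and 4 higher at 0 h. Scaling each array to its median instead of its 75th percentile moved the median of all gene names at 0 h to -0.46. It left 18 members lower and 2 higher, with 3862 of all gene names called lower and 861 higher. Relative to all gene names the members' median was -0.33 under both. Each scaling subtracts 1 constant from an array, so this relative value could not differ between them.

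Bub1b had the largest line difference of its group on average over the 4 times (-1.18 ± 0.09, adjusted p = 6.86e-10). At 0 h it read 3.22, 2.52 and 2.67 in the CAT line and 1.25, 1.57 and 1.36 in the Tbc1d23 line, and at 5 h 2.50, 2.33 and 2.47 and 0.88, 1.46 and 0.98. The lines did not overlap at either time. Top2a read 2.36, 1.76 and 1.69 and 0.55, 0.60 and 0.59 at 0 h, with an average difference of -1.04 ± 0.09 (adjusted p = 6.99e-09), and Cdc25c 0.27, -0.39 and -0.32 and -0.99, -1.42 and -1.50, with -1.01 ± 0.10 (adjusted p = 4.08e-08). Ccna2, Ccnb2 and Mad2l1 were lower by 1.29, 1.09 and 1.03 at 0 h, and these 6 genes were called lower at all 4 times. Their second probes, where kept, had the same sign. Mki67, Aurkb and Bub1 were lower at 0 h (-0.56, -0.46 and -0.42). By 5 h Mki67 was higher on its brighter probe (0.50 ± 0.12), and Aurkb and Bub1 were not called. The dimmer Mki67 probe gave -1.07 at 0 h, and its difference of LPS responses at 5 h was 0.93. This leaves it below the CAT line at 5 h, so the direction for Mki67 at that time rests on the choice of probe. Ccnb1 was not called on its brightest probe (-0.17 ± 0.12), while its 2 dimmer probes gave -1.30 and -1.40, so the direction for cyclin B1 rests on the choice of probe. Cdc2a was lower at 0 h (-0.39 ± 0.13, adjusted p = 0.023).

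Some members differed between the Tbc1d23 slides of the 2 runs. Plk1 read 4.78, 5.17 and 4.05 in the Tbc1d23 line at 0 h against 4.41, 4.39 and 4.58 in the CAT line, with replicate 3 the lowest array of all 6. Its average line difference was 0.50 ± 0.16 (adjusted p = 0.0096), but -0.14 within the run shared by both lines (adjusted p = 0.0979). For Pcna (6.77, 6.98 and 7.39 at 0 h in the Tbc1d23 line) and Cdc20 (6.28, 6.63 and 6.91) replicate 3 was the highest of the 3 Tbc1d23 arrays, with average differences of -0.04 and -0.0035 that became 0.34 and 0.34 within that run.

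At 3 and 5 h of LPS more members were called higher in the Tbc1d23 line than lower. At 3 h 18 of 44 were higher and 6 lower (27.2% and 23.7% of all gene names). With median scaling 12 were higher and 1 lower, beside 2291 and 1881 of the 15096 gene names. At 5 h 25 were higher and 6 lower (29.4% and 23.9%), and within the run shared by both lines 23 and 2. The 25 included 11 of 12 licensing genes, 4 of 6 synthesis genes and 8 of 11 G1/S genes. They also included 2 of 15 genes of G2 and mitosis, Aurka (0.43 ± 0.17) and, on its brighter probe only, Mki67. The 6 lower were all genes of G2 and mitosis. Of the 15 genes that were lower at 0 h, 6 were higher at 5 h, 6 stayed lower and 3 were not called. Mcm7, for example, was 1.05 lower at 0 h (adjusted p = 5.10e-05) and 0.58 higher at 5 h (adjusted p = 0.00712), with Tbc1d23 values of 4.94, 5.35 and 5.45 and 4.70, 4.90 and 5.16. Its level in the Tbc1d23 line at 0 h already lay below that of the CAT line, and at 5 h the CAT arrays were the lower ones.

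**Figure D5:**
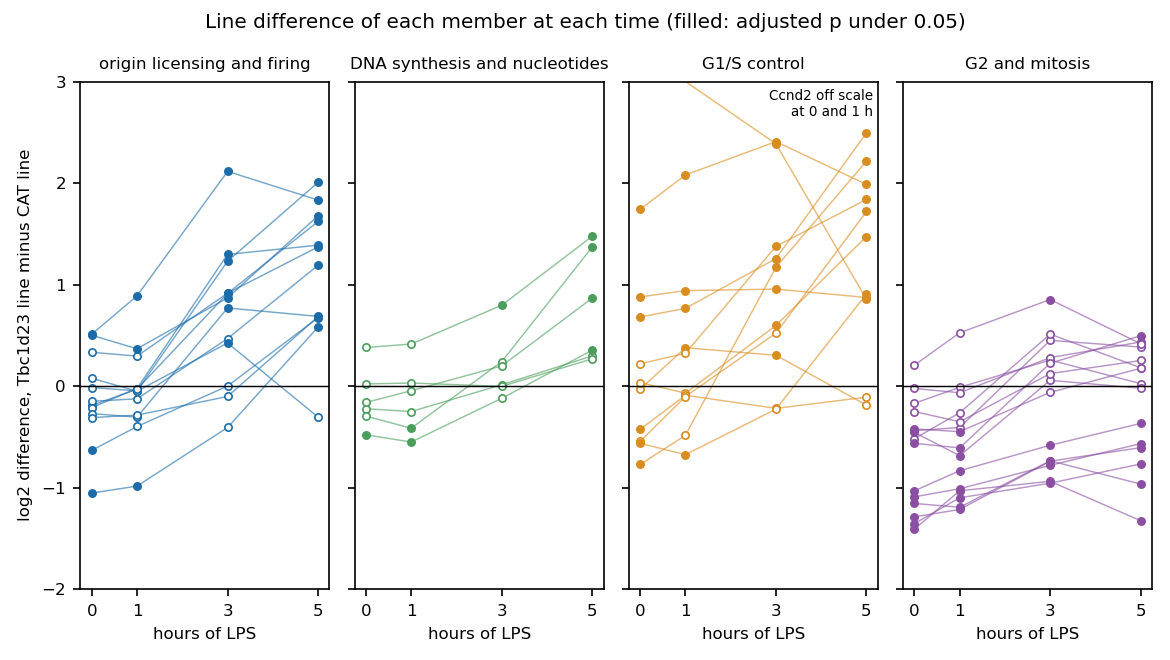
Log2 difference, Tbc1d23 line minus CAT line (vertical axis), of every member at 0, 1, 3 and 5 h of LPS, in a panel for each role, filled where the adjusted p was below 0.05; Ccnd2 (6.07 at 0 h and 6.36 at 1 h) is off the scale. Licensing genes lie between -1.05 and 0.51 at 0 h and at 0.58 or above at 5 h (Mcm10, at -0.31, apart), while 6 mitotic genes stay below 0 at all times.

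Averaged over the 4 times, 20 genes were higher in the Tbc1d23 line and 11 lower (37.9% and 32.6% of all gene names). In either direction 31 of 44 were called, about as often as all gene names (70.5%). With median scaling 10 were higher and 11 lower, beside 3161 and 5418 of the 15096 gene names. The reported fit treats the arrays of a slide as independent, so its SE and adjusted p for any average take no account of shared slides. With the slide as a random block, 17 genes were higher and 7 lower on average. In that fit 8146 of all gene names were called, against 10645 in the reported fit. Licensing genes with the largest averages were Cdt1 (1.34 ± 0.10, adjusted p = 4.14e-10), Mcm4 (0.85 ± 0.07) and Cdc6 (0.79 ± 0.08). Cdt1 was higher already at 0 h, at 7.17, 7.36 and 6.87 against 6.41, 6.76 and 6.70, and this 0 h difference of 0.51 was -0.046 with median scaling (adjusted p = 0.933). Mcm4 was likewise 0.50 at 0 h, and -0.056 with median scaling (adjusted p = 0.91). In the synthesis group the averages were 0.77 ± 0.10 for Prim1, 0.22 ± 0.06 for Rrm2 and 0.21 ± 0.08 for Pola1, the last of which was -0.0046 with median scaling. Cdc6 was not called between the lines at 0 h (-0.01 ± 0.15, adjusted p = 0.95) and differed by 2.01 ± 0.15 at 5 h (adjusted p = 2.14e-09). Its dimmer probe gave -0.51 at 0 h and 0.42 on average, so the sizes of the 0 h and average differences rest on the choice of probe.

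The G1/S genes held the largest line differences of all members. Ccnd2 read 1.74, 1.90 and 2.35 in the Tbc1d23 line at 0 h against -3.49, -3.56 and -5.17 in the CAT line. The average difference was 3.92 ± 0.21 (adjusted p = 7.43e-12), and Ccnd2 stayed between 1.65 and 2.59 on all 12 Tbc1d23 arrays. Its size is loose, since 2 of 3 CAT arrays at 0 h and 1 of 3 at 1 h were well above background. By 5 h the line difference was 0.85 ± 0.42 (adjusted p = 0.1), with the CAT arrays at 0.68, 1.28 and 1.67. Ccnd1 read 3.66, 3.85 and 3.85 at 0 h against 2.08, 2.01 and 2.04, and its lines stayed apart at all 4 times with an average of 2.05 ± 0.05 (adjusted p = 3.07e-17), or 4.15-fold. Ccnd3 differed at 1 h (0.38 ± 0.10) and 3 h (0.30 ± 0.10) and not by the test at 0 h (-0.03 ± 0.10) or 5 h (-0.19 ± 0.10). Ccne2 was higher at every time, by 0.68 at 0 h and 2.49 at 5 h (average 1.30 ± 0.08). Cdc25a was higher by 0.88 at 0 h and 0.87 at 5 h, in a gene with no LPS call in either line. E2f2 and E2f8 were lower at 0 h (-0.77 and -0.56) and higher at 5 h (2.22 and 0.91).

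Of 33 other genes of the replication fork and of initiation that passed the filter, LPS at 5 h lowered 30 and raised 1 in the CAT line (median -1.23; 21.8% and 19.6% of all gene names). In the Tbc1d23 line it lowered 7 (median -0.33; 2.88% of all gene names), and the difference of responses was called positive for 23 (12.1% of all gene names). Tk1, which salvages thymidine, changed by -3.18 ± 0.21 and -0.97 ± 0.21 in the CAT and Tbc1d23 lines, Gins3, a part of the active helicase, by -2.73 ± 0.15 and -0.76 ± 0.15, and Chaf1b, a histone chaperone of the fork, by -2.67 ± 0.34 and -0.08 ± 0.34 (the last not called, adjusted p = 1). For Chaf1b the Tbc1d23 array of 0 h replicate 2 read 4.04 against 5.54 and 4.98 on the other two; without that replicate's slide the change was -0.60 ± 0.35, again not called (adjusted p = 0.615). In the Tbc1d23 line the calls of Tk1 and Gins3 were lost without the slide of Tbc1d23 replicate 2 (-0.97 and -0.71), and that of Tk1 also without the slide of Tbc1d23 replicate 1 (-0.97). The 1 gene that rose was Orc3l (0.30 ± 0.10), a subunit of the origin recognition complex. Its call was lost without CAT 0 h replicate 2 or 3, CAT 5 h replicate 1 or the slide of CAT replicate 2 or 3 (0.25 to 0.28). Between the lines 12 of the 33 were lower and 3 higher at 0 h (20% and 25.2% of all gene names), and 1 lower and 25 higher at 5 h (23.9% and 29.4%).

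Of 31 other mitosis genes, LPS at 5 h lowered 25 in the CAT line (median -0.87; 21.8% of all gene names) and 4 in the Tbc1d23 line (median -0.28; 2.88%), and none was called higher in either. Ncapd2, a condensin subunit, changed by -1.66 ± 0.12 in the CAT line, Smc2 of the same complex by -1.38 ± 0.53, and Racgap1, which acts in cytokinesis, by -1.32 ± 0.16. The value of Smc2 rests on 1 slide: CAT replicate 1 went from 3.37 to 0.56 and replicates 2 and 3 from 3.11 to 2.20 and from 2.60 to 2.18, and without the slide of CAT replicate 1 the change was -0.67 ± 0.29 and not called (adjusted p = 0.095). Its call (adjusted p = 0.0445) was lost in 15 of the 30 fits that left out 1 array or slide. At 0 h 17 of the 31 were lower in the Tbc1d23 line and none was higher (20% and 25.2% of all gene names), with Ncaph (-1.61 ± 0.24), Espl1 (separase, -1.43 ± 0.19) and Foxm1, a transcription factor of mitotic genes (-1.42 ± 0.21), the lowest. Foxm1 stayed lower on average (-1.10 ± 0.11, adjusted p = 2.73e-08), with 0 h values of 2.07, 2.31 and 2.68 against 3.65, 3.82 and 3.86.

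Promoter sequences are shown to set the start regions of licensing genes, of which 11 of 12 fell in the CAT line, beside those of genes of G2 and mitosis, of which 9 of 15 were lower in the Tbc1d23 line at 0 h. RefSeq promoter windows (GRCm38.p6, 250 bases before to 50 after the start) were at hand for 36 of the 44 genes in 39 windows, and were searched on both strands for E2F elements spelled TTTCCCGC, TTTCGCGC, TTTGCCGC or TTTGGCGC, the CHR element TTTGAA and the CCAAT box CCAAT. An E2F element stood in the window of 7 of 10 licensing genes, 1 of 6 synthesis genes, 3 of 8 G1/S genes and 0 of 12 genes of G2 and mitosis, against 2.26% of 32851 windows of all genes. A CHR element stood in 7 of 12 genes of G2 and mitosis and 2 of 10 licensing genes, against 17.9% of all windows, and a CCAAT box in 28 of the 36 genes, against 37.4%. A match is a string of letters and says nothing of binding. Below are the 200 bases before the start, 5′ to 3′ on the gene's strand, of 5 genes with an E2F element there, which stands in capitals (overlapping matches run together).
Mcm5: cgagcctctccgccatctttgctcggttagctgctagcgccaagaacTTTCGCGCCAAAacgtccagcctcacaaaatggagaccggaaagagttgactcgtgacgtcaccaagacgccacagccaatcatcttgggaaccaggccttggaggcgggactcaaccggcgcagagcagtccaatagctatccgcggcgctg
Mcm6: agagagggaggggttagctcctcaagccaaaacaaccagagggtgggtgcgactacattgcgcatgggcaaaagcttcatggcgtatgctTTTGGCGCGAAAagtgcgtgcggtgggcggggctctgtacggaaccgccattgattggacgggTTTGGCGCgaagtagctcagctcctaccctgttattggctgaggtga
Cdc6: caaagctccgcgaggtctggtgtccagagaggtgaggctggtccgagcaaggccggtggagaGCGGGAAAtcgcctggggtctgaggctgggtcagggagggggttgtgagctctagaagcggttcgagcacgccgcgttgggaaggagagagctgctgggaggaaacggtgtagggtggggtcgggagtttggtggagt
Orc1: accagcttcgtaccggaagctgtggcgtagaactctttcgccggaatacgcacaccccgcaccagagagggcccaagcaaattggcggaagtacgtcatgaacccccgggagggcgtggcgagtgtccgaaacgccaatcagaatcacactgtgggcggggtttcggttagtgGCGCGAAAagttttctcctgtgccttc
Cdc25a: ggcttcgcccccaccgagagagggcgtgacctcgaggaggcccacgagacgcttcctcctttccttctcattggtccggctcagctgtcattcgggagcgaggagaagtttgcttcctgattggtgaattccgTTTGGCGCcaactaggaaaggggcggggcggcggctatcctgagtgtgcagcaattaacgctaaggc

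These stretches lie at chr8:75109309-75109508 on the plus strand (Mcm5), chr1:128359706-128359905 on the minus strand (Mcm6), chr11:98907951-98908150 on the plus strand (Cdc6), chr4:108579254-108579453 on the plus strand (Orc1) and chr9:109875379-109875578 on the plus strand (Cdc25a). Mcm5 and Mcm6 each carry TTTCGCGC and TTTGGCGC on opposite strands as 1 overlapping pair, and Mcm6 a further TTTGGCGC closer to the start. The first 4 genes fell with LPS in the CAT line at 5 h (-1.74, -1.75, -2.69 and -1.16), and Cdc25a, with the same element, was not called (0.07, and -0.27 on its second probe). Of the 11 members with an E2F element 10 were called lower in the CAT line at 5 h, with a median of -1.74, and of the 25 without one 20 were, with a median of -0.89 (21.8% of all gene names were called lower). In the Tbc1d23 line the medians were -0.33 and -0.29. The 11 held 7 licensing genes and no gene of G2 and mitosis, so element and role cannot be told apart in this split. E2f1 and Mcm2, which have windows without a match, fell by 2.72 and 2.27 in the CAT line. The mitotic genes below carry the CHR element in capitals.
Ccnb2: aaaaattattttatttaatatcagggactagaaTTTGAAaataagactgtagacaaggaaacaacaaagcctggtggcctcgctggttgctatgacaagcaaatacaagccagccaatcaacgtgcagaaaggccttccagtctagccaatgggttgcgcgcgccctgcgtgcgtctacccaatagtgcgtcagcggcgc
Cdc20: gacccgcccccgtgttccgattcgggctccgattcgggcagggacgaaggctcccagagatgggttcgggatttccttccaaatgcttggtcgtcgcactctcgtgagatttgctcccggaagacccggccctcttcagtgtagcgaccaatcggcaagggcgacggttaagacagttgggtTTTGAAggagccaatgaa
Top2a: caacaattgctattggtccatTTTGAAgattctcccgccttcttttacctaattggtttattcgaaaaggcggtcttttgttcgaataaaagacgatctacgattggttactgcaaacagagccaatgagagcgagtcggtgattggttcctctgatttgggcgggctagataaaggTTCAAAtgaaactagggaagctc
Mki67: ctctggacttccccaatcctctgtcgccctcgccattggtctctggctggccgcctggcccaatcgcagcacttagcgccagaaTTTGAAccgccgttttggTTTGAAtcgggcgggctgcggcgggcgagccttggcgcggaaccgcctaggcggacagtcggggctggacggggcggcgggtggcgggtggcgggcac

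They lie at chr9:70421555-70421754 on the minus strand (Ccnb2), chr4:118437344-118437543 on the minus strand (Cdc20), chr11:99024190-99024389 on the minus strand (Top2a) and chr7:135716380-135716579 on the minus strand (Mki67). At 0 h the line differences of these genes were -1.09, -0.44 (not called), -1.35 and -0.56. Of the 11 members with a CHR element 6 were lower and none higher in the Tbc1d23 line at 0 h, with a median of -0.56, and of the 25 without one 6 were lower and 2 higher, with a median of -0.17. Over all gene names 20% were called lower and 25.2% higher. The 11 held 7 genes of G2 and mitosis, so here too element and role cannot be told apart. The CHR match lies only after the start in Bub1b (base 41), Aurka (base 33) and Plk1 (base 31), with line differences at 0 h of -1.41, -0.02 and 0.21, the latter pair not called. Mad2l1, lower by 1.03, has none of the 3 elements in its window.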

How the data were processed

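RNA of 24 RAW264.7 samples was labelled with Cy3 and read on 1-colour Agilent arrays. The deposited scanner files hold spot intensity from Agilent Feature Extraction 10.7.1.1, background-subtracted per the file headers. The deposited value table holds log2 values; the submitters' processing notes name RMA and Partek, and its ranks followed the scanner signals (Spearman 0.9997 to 0.9999), while its scaling was not stated there.

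Non-outlier spots of a probe were averaged, log2 was taken and each array's 75th percentile over all probes was subtracted. A probe was kept if well above background on all 3 arrays of a group, and the brightest kept probe stood for a gene name; Orc1l and Cdc45l were counted for Orc1 and Cdc45. limma 3.58.1 (R 4.3.3) fitted 8 group means to 15096 gene names; 14 contrasts (line at each time and averaged, LPS in each line, and the difference of LPS responses) were adjusted by Benjamini-Hochberg at 0.05. The script was tested on simulated data. The number of arrays limits precision.

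Replicate numbers pair arrays within a line, where same-numbered arrays share a slide: their deviations from group means correlated in all 36 pairs (0.186 to 0.826), and across lines in none (-0.434 to 0.029). The fit with this replicate block, other scalings, background corrections, filters, probe rules, slide and run blocks and leaving out arrays are in the closing section.

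Members, gene lists and motifs were chosen with earlier results of these data known. Named were the MCM2-7 subunits and D cyclins; per role the 3 largest average line differences; per line the 5 highest and lowest called at 5 h of LPS; the 3 highest and lowest differences of response; genes of opposite direction; from the other lists Cdkn1a, Myc, Foxm1 and up to 3 called genes each way. Further members are given by role, to account for all of them.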

Additional observations from a re-analysis of the deposited data

Results flagged for a closer look

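The LPS responses of 25 members at 5 h and 13 at 3 h differed between the lines by limma's test of the difference itself (adjusted p below 0.05 over all gene names). The values are log2 changes in the Tbc1d23 line minus those in the CAT line; both times share the 0 h arrays. At 5 h the differences of the licensing genes were Mcm2 1.81, Mcm3 1.04, Mcm4 1.18, Mcm5 1.31, Mcm6 1.34, Mcm7 1.64, Cdc6 2.02, Cdt1 1.32, Gmnn 1.6, Orc1l 0.96 and Cdc45l 0.99. At 5 h the differences of the DNA synthesis genes were Rrm1 0.83, Rrm2 1.67, Pola1 1.03 and Prim1 1.1. At 5 h the differences of the G1/S genes were Ccnd2 -5.21, Ccne1 1.62, Ccne2 1.81, Cdk2 1.44, E2f1 2.26, E2f2 2.99 and E2f8 1.47. At 5 h the differences of the genes of G2 and mitosis were Bub1 0.60, Mad2l1 0.66 and Mki67 1.06. At 3 h those of the licensing genes were Mcm2 1.1, Cdc6 1.24, Cdt1 1.6, Gmnn 1.51 and Orc1l 1.04. At 3 h that of the DNA synthesis genes was Rrm2 0.54. At 3 h those of the G1/S genes were Ccnd1 0.67, Ccnd2 -3.68, Ccne1 1.16, E2f1 1.07 and E2f2 1.94. At 3 h those of the genes of G2 and mitosis were Cdc25b 1.03 and Mki67 0.79. On the probes used the sign was positive for all of them but Ccnd2, the member that LPS raised in the CAT line. The dimmer probe of Bub1 gave -0.27 at 5 h. Groups of 3 arrays are too small for the check on single outlying samples.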

How the results depend on the processing

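Counts below are members called, of 44, in either direction; the cause of a change was not tested. With median scaling the counts were 8, 13 and 17 for the line difference at 1, 3 and 5 h, 0 and 10 for LPS in the CAT line at 1 and 3 h, 0 and 0 for the Tbc1d23 line at 3 and 5 h, and 8 and 14 for the difference of responses at 3 and 5 h. Over all gene names it called 3065, 4172 and 4713 for the line difference at 1, 3 and 5 h, against 6846, 7676 and 8041 in the reported fit. For the CAT line at 1 and 3 h it called 421 and 2347, against 1102 and 5236. That scaling moved the median of all gene names by more than 0.1 in several comparisons. For LPS at 1 h in the Tbc1d23 line it went from -0.09 to 0.48. The members' median relative to all gene names was the same to within 0.001, since both scalings subtract 1 constant from each array. Quantile normalization and the deposited values each gave 4 for the CAT line at 1 h, 4 and 17 for the Tbc1d23 line at 3 and 5 h, and 26 for the difference at 3 h. Scaling to probes above background on all arrays gave 4, 14 and 20 for the last 3 of these. The planned normexp correction could not be fitted on 6 arrays; a repair chosen after seeing the data gave 4 for the Tbc1d23 line at 3 h. Without a filter the CAT line at 1 h and the Tbc1d23 line at 3 h had 1 each.

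A block for the slide run gave the CAT line 6 at 1 h, the Tbc1d23 line 4 and 15 at 3 and 5 h, and the difference of responses 20 at 3 h. The slide as a random block (within-slide correlation 0.569) gave 7 for the CAT line at 1 h, 1, 5 and 22 for the Tbc1d23 line, and 2 and 27 for the difference at 1 and 3 h. For the line difference averaged over times that block gave 24, against 31 in the reported fit. The replicate block gave 8, then 1, 5 and 23, and 28 for the difference at 3 h, and moved no other count by over 1.5 times. It also called more of all gene names, for example 8680 against 6250 for LPS at 5 h in the CAT line. Within the run shared by both lines the Tbc1d23 line had 1 and 1 at 3 and 5 h and the difference at 3 h was 8. Leaving out 1 array or slide gave 0 to 3 for the CAT line at 1 h and 20 to 37 at 3 h, 1 to 3 and 0 to 10 for the Tbc1d23 line at 3 and 5 h, and 9 to 22 for the difference at 3 h; the libraries are named in the report. Without 1 array or slide, calls of single members were lost for 5 of 21 at 0 h between the lines (Aurkb, Bub1, Cdk4, Cdt1 and E2f8), 5 of 31 at 5 h (Aurka, Ccna2, Mad2l1, Mcm7 and Rrm1), 9 of 31 on average, and 4 of 25 differences of response at 5 h (Bub1, Mad2l1, Mcm6 and Prim1). For LPS at 3 h in the CAT line 17 of 34 calls were lost in this way, among them Mcm3, Mcm4, Mcm6, Mcm7, Plk1, Bub1b and Cdc25c.

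In 16 cases a value called in either fit changed sign; 6 were called in the reported fit (Mcm4, Cdt1, Pola1, Ccnd1, and the average of Plk1 under both run settings). With median scaling the 0 h line differences of Mcm4 and Cdt1 were -0.056 and -0.046, the average of Pola1 -0.0046, and LPS at 3 h in the Tbc1d23 line gave Ccnd1 0.21. With the mean of probes Ccnb1 was -0.67 at 3 h, -0.97 at 5 h and -0.87 on average. With that run as a block Plk1 was -0.43 at 0 h and -0.14 on average, Pcna 0.34, E2f8 0.19 and Cdc20 0.34 on average. Within the run shared by both lines Plk1 was -0.42 at 0 h and -0.14 on average, Pcna 0.34 and Cdc20 0.34. For dim probes such as Ccnd2 in the CAT line at 0 and 1 h, signal near background limits the size of a change.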

Other observations

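Genes that brake the cell cycle responded in both directions. Of 19 such genes that passed the filter, LPS at 5 h raised 6 and lowered 10 in the CAT line (19.6% and 21.8% of all gene names) and raised 3 and lowered 3 in the Tbc1d23 line (3.15% and 2.88%). Gadd45b, a stress-induced gene, read 2.11, 2.47 and 2.26 at 0 h and 6.09, 6.28 and 6.19 at 5 h in the CAT line, a rise of 3.91 ± 0.19, and rose by 1.99 ± 0.19 in the Tbc1d23 line. Gadd45a rose by 2.64 ± 0.23 in the CAT line. Rbl2, a pocket protein related to the retinoblastoma protein, changed by -2.83 ± 0.14 in the CAT line. Tob1, an antiproliferative protein, was not well above background on any CAT array at 5 h and was at least 4.98-fold lower than at 0 h (adjusted p = 6.31e-06). The same held for Wee1, which inhibits Cdk1, at least 1.66-fold lower (adjusted p = 0.00306). Cdkn1a (p21), an inhibitor of cyclin-dependent kinases, read 0.19, -0.09 and 0.08 in the CAT line and 2.82, 2.94 and 3.06 in the Tbc1d23 line at 0 h. Its arrays did not overlap, and LPS at 5 h raised it by 2.46 ± 0.17 in the CAT line and 0.75 ± 0.17 in the Tbc1d23 line. The latter call was lost without Tbc1d23 5 h replicate 2 (0.66) or the slide of Tbc1d23 replicate 1 (0.78) or 2 (0.66). Ccng1 (cyclin G1), which p53 is known to induce, differed between the lines by 3.17 ± 0.07 on average and was called with LPS at 5 h in neither line (0.03 ± 0.13 and 0.06 ± 0.13).

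Among 14 other E2F and MYC factors, LPS at 5 h raised 4 and lowered 7 in the CAT line and raised 1 and lowered 2 in the Tbc1d23 line, against the same shares of all gene names. Myc, a driver of growth, read -3.0, -2.38 and -2.74 at 0 h and 3.5, 3.64 and 3.59 at 5 h in the CAT line, and -3.85, -4.01 and -3.77 and -0.52, -0.55 and -0.07 in the Tbc1d23 line, where 2 of 3 arrays at 0 h were well above background. It rose in both, by 6.28 ± 0.22 and 3.49 ± 0.22, and the rises differed between the lines (-2.79 ± 0.31, adjusted p = 1.43e-06). Mxd1, which opposes MYC at its sites, rose by 2.40 ± 0.20 in the CAT line and was not called in the Tbc1d23 line (-0.10 ± 0.20). E2f7, a repressive relative of E2f8, fell by 3.09 ± 0.17 and 0.83 ± 0.17 in the CAT and Tbc1d23 lines, and Tfdp2, a partner of E2F factors, changed by -1.90 ± 0.18 in the CAT line. The E2f7 call in the Tbc1d23 line was lost without the slide of Tbc1d23 replicate 1 (-0.82). Cdkn1c, Cdkn2a and Cdkn2b were on the array and did not pass the filter.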
